A study of Rattus norvegicus with 13 samples.

Results

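Semaphorins, plexins, ephrins and Eph receptors are cell-surface and secreted guidance proteins, and their transcripts were followed here at the margin of the rat cornea, where peripheral cornea meets limboscleral tissue. The genes were taken by symbol: every row of the day 3 expression files whose name begins with Sema, Plxn, Efn or Eph followed by the class letter or number of these families. This gave 51 genes of the 28357 named in the files, made up of 20 semaphorins, 9 plexins, 8 ephrins and 14 Eph receptors. The rule uses names and no measured value, although the families were picked for description with earlier results of these data known. The spironolactone group at day 3 (n = 3 libraries) came from rats given systemic spironolactone, an antagonist of the mineralocorticoid receptor, at 25 mg/kg/day. The vehicle group at day 3 (n = 3 libraries) was given 90% olive oil with 10% DMSO. The rats were 2-month-old wild-type Lewis males, and all served as a corneal neovascularization model based on limbal stem cell deficiency, so the model is shared by both groups and no uninjured cornea is among the groups used here. Treatment was by daily subcutaneous injection, and the protocol text of the vehicle libraries repeats that of the spironolactone libraries. In each group the tissue also held retina, lens and muscle transcripts, given below. Nothing in the labels ties each library to its own animal, so each p-value reflects library-to-library spread, which may be technical. The 7 day 7 libraries were not analysed here.

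Ephrins are membrane-bound ligands: ephrin-A proteins are held by a lipid anchor and mainly bind EphA receptors, while ephrin-B proteins span the membrane and mainly bind EphB receptors. Eph receptors are tyrosine kinases that signal when neighbouring cells touch, and the ligand can signal back into its own cell, which sorts cells and sets borders in epithelia and between arteries and veins. Semaphorins bind plexins, often together with a neuropilin, and mostly repel growing axons and vessel sprouts. In the cornea these families are studied because the tissue is densely innervated and normally free of vessels.

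Libraries held 18.2 to 25.3 M estimated counts at day 3. The tissue was mixed. Markers of corneal and limbal epithelium, 12 of 12 detected in every library, summed to 15909 to 18761 TPM (a length-corrected share of all transcripts) in spironolactone libraries and 9239 to 12914 TPM in vehicle libraries. Retina markers summed to 256 to 3744 TPM with spironolactone, the lowest in replicate 3, and 4515 to 5048 TPM with vehicle. Skeletal muscle markers summed to 194 to 342 TPM with spironolactone and 659 to 1431 TPM with vehicle, and blood endothelium markers to 248 to 312 TPM with spironolactone and 320 to 459 TPM with vehicle. Lens markers summed to 98.2 to 123 TPM with spironolactone and 130 to 1067 TPM with vehicle, the highest in replicate 3; Crygb, Crygc, Crygd, Mip and Lim2 were at 0 in some libraries. Markers of keratocytes and fibroblasts summed to 7787 to 8451 TPM with spironolactone and 8242 to 8848 TPM with vehicle, and those of Schwann cells to 582 to 639 TPM with spironolactone and 574 to 612 TPM with vehicle. Markers of pericytes and smooth muscle summed to 828 to 940 TPM with spironolactone and 815 to 984 TPM with vehicle, and those of lymphatic endothelium to 382 to 557 TPM with spironolactone and 434 to 776 TPM with vehicle. Neutrophil markers, with Fpr1 at 0 in some libraries, summed to 92.1 to 128 TPM with spironolactone and 122 to 157 TPM with vehicle.

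At day 3 most Eph receptors of high and middle level, most ephrins, 4 of the class 4 semaphorins and plexins B1 and B2 had higher values with spironolactone than with vehicle. All 4 class 6 semaphorins, Sema7a, Epha3 and plexins A4, C1 and D1 had lower values. None of these differences passed the test. Of the 50 members that passed the filter on low counts, edgeR called 0 at an adjusted p of 0.05, as it called 0.0% of the 14762 genes tested. The lowest adjusted p of a member was 0.0649, for Sema4b. That value was also the lowest of all tested genes, shared with Erbb2, Gipc1 and Vav3, which are described below. At an unadjusted p under 0.05 there were 25 members, 50% of those tested, where 22.6% of all tested genes were at that level. Of these, 18 members had higher values with spironolactone (12.2% of all tested genes) and 7 had lower values (10.4% of all tested genes). The median log2 fold change over the 50 members was -0.02, against -0.01 over all tested genes, since positive members (23, against 48.4% of all tested genes) and negative ones (27) were about as many. In bulk tissue, fewer cells of a type and less RNA per cell cannot be told apart.

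**Figure D1:**
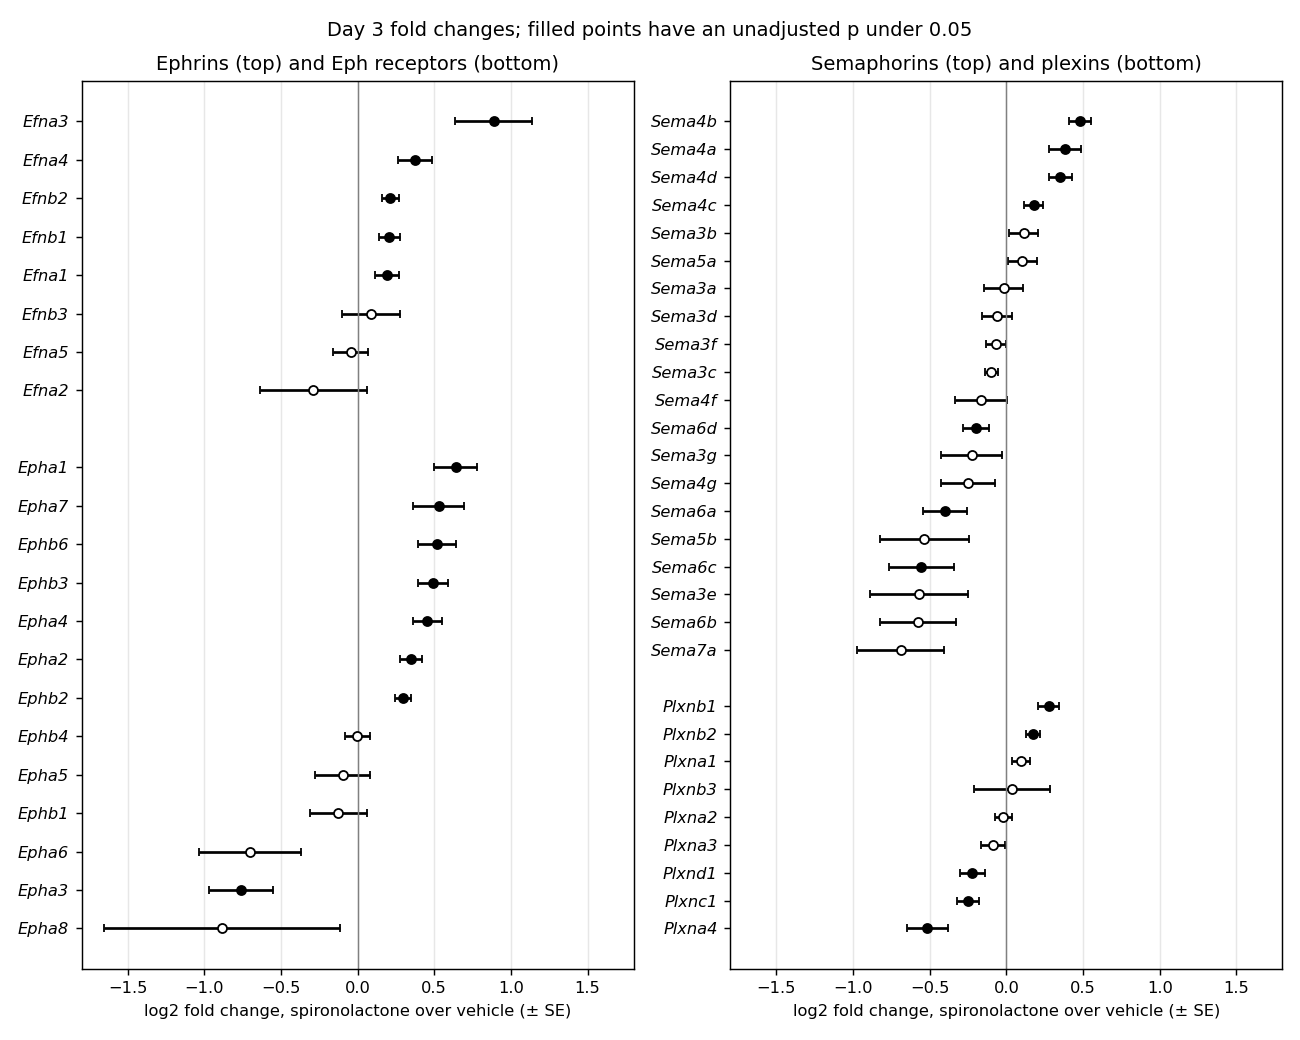
Log2 fold change of spironolactone over vehicle at day 3 (x axis, ± SE) for the 50 tested members, 1 row a gene, ordered by value within each family; filled points have an unadjusted p under 0.05. The 18 filled points right of 0 lie among ephrins, Eph receptors, class 4 semaphorins and B plexins, and the 7 left of 0 are Epha3, Sema6a, Sema6c, Sema6d, Plxna4, Plxnc1 and Plxnd1.

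The members differed widely in level. Plxnb2, a receptor for class 4 semaphorins, stood highest at 168 ± 7.96 TPM over the 6 libraries (mean ± SD) and made up 60.8% of all plexin transcripts. Plxnd1, Plxna1 and Plxnb1 followed at 30.1, 26.1 and 25.1 TPM with overlapping ranges. Among semaphorins the secreted ligand Sema3c led at 83.8 ± 5.13 TPM, with no overlap with the next gene, Sema3f, at 49.95 ± 2.84 TPM. Sema3f, Sema4a, Sema7a and Sema4d formed a chain in which each range overlapped the next. Efnb1, Efnb2 and Efna1 were the leading ephrins at 44.1, 38.0 and 32.7 TPM, again with overlapping neighbours. Epha1, an Eph receptor of epithelia, led the receptors at 62.4 ± 15.9 TPM, the widest spread of that family, and its range overlapped that of Epha2 at 39.0 ± 4.89 TPM. At the low end Epha8, Epha6, Epha10 and Plxnb3 averaged 0.188 to 0.572 TPM, and Epha10, a receptor without kinase activity, was the 1 member that did not pass the filter.

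**Figure D2:**
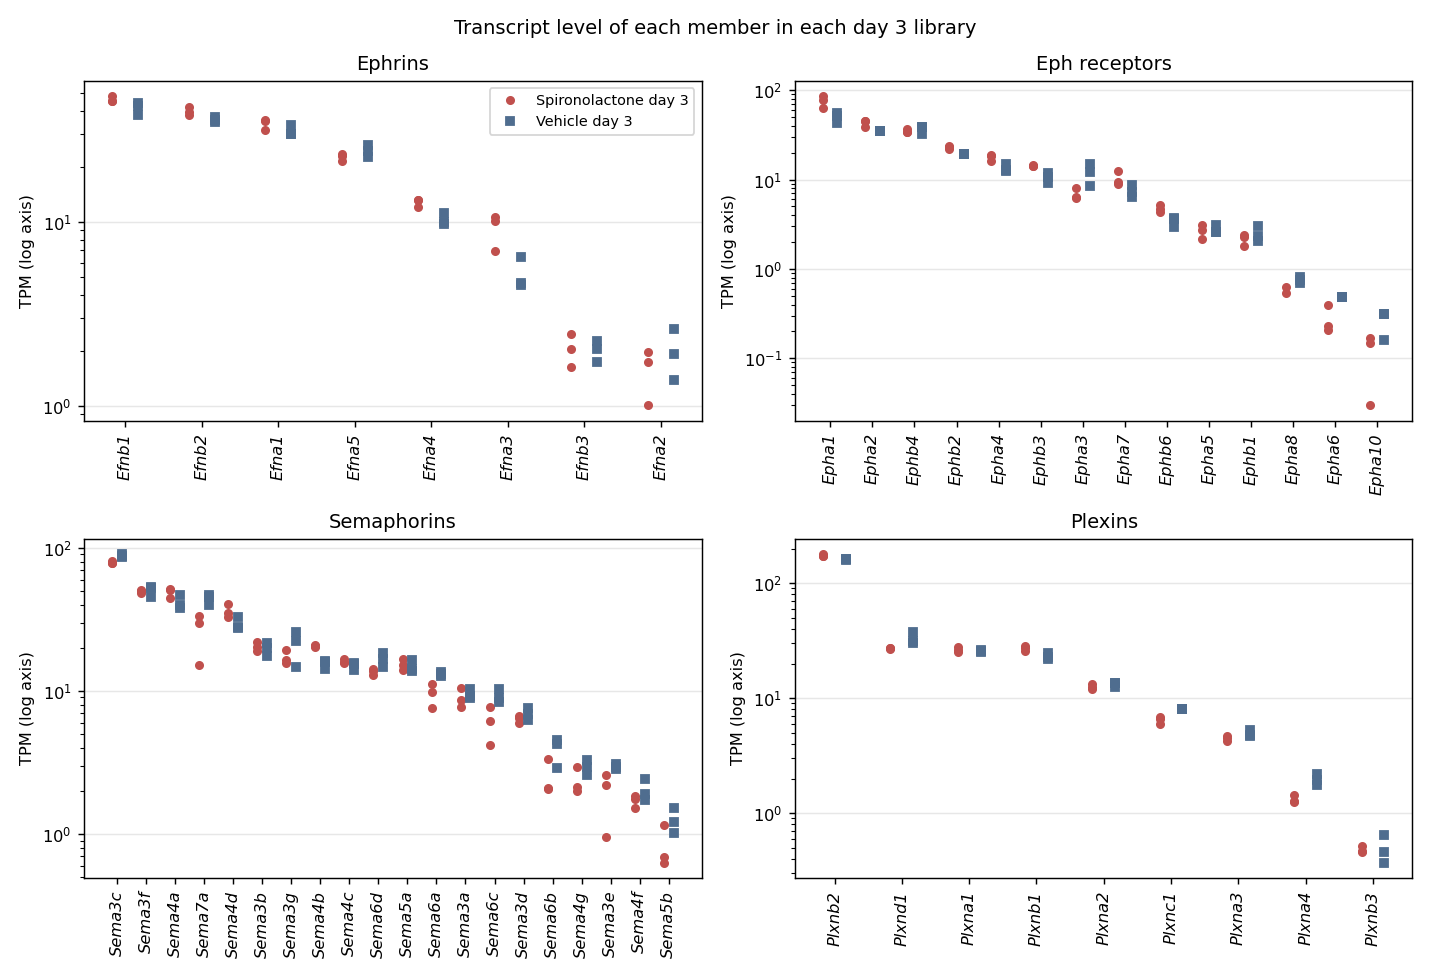
TPM (log y axis) of every member in each of the 6 day 3 libraries, by family, ordered from highest to lowest mean; circles are spironolactone libraries and squares are vehicle libraries. Plxnb2 lies above all other members, and the value of 0 for Epha8 in spironolactone replicate 3 cannot be drawn on a log axis.

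The start regions of the genes were read from RefSeq promoter windows of the GRCr8 assembly, which is not a build listed for the expression files. The windows run from 250 bases before to 50 bases after each start. A window was found for 41 of the 51 members; Efnb3, Epha4, Plxna1, Plxna4, Sema3a, Sema3b, Sema3f, Sema4d, Sema4g and Sema5a had none. The median GC content was 61.0% in members and 60.7% over the 10190 windows of tested genes. Shown are the windows of the members with the smallest p in each direction among those with a window, Sema4b and Ephb2 with higher values and Epha3 and Plxnc1 with lower ones, and that of Ephb6 for a motif match. Sema4b lies at chr1:143558547-143558846 on the plus strand, Ephb2 at chr5:154360375-154360674 on the minus strand, Epha3 at chr11:14920376-14920675 on the minus strand, Plxnc1 at chr7:31430556-31430855 on the minus strand and Ephb6 at chr4:71458382-71458681 on the plus strand. Each is written 5′ to 3′ along the gene. Capitals mark matches on either strand to AGAACA, the hexamer that steroid receptors of the mineralocorticoid and glucocorticoid type recognise, to the GC box GGGCGG, to the CCAAT box CCAAT or to the TATA box TATAAA; no matches overlap in these windows.
Sema4b: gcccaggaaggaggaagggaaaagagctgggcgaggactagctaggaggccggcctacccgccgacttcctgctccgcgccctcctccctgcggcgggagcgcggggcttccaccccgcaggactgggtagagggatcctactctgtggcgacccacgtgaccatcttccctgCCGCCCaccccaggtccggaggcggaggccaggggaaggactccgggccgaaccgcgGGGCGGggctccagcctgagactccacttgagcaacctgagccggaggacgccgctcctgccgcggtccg
Ephb2: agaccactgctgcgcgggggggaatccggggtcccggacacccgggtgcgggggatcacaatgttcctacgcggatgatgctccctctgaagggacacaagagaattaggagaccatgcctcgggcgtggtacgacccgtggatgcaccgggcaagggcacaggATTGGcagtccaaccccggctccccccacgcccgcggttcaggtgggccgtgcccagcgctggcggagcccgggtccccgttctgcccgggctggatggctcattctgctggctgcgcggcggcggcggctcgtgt
Epha3: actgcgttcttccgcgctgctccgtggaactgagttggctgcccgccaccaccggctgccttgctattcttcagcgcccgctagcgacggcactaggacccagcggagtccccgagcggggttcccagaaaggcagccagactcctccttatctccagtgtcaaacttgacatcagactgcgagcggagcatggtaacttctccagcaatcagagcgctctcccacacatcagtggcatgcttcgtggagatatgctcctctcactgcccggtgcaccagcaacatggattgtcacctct
Plxnc1: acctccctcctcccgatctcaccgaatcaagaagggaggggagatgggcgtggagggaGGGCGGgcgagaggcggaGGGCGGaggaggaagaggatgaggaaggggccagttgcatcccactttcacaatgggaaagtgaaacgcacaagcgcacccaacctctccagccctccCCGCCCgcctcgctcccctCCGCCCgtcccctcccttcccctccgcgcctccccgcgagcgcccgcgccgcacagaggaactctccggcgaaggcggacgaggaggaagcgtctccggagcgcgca
Ephb6: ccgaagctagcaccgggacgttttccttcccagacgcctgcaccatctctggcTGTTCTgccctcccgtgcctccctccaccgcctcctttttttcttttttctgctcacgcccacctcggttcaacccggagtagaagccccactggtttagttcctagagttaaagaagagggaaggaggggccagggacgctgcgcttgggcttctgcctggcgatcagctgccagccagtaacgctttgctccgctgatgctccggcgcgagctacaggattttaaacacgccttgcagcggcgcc
The Ephb6 window holds 1 hexamer, on the opposite strand from base 54, and the Sema4b and Plxnc1 windows hold 2 and 4 GC boxes. Over all members the hexamer was in 2 of 41 windows (Ephb6 and Sema6b), 4.88%, against 12.3% of windows of tested genes. The GC box was in 56.1% of members and 60.7% of tested genes, and the CCAAT box in 36.6% of members and 37.2% of tested genes. No member window held TATAAA, against 7.15% of tested genes. These are matches of letters, not binding sites.

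Among ephrins, 6 of 8 had positive log2 fold changes (median 0.20) and 5 were at an unadjusted p under 0.05, all higher with spironolactone. Over all tested genes, 48.4% had positive log2 fold changes and 12.2% were higher at that p. Efna3, a lipid-anchored ligand of EphA receptors, had the largest positive log2 fold change of any member, with 10.1, 6.99 and 10.7 TPM in spironolactone libraries, against 4.65, 4.57 and 6.42 TPM in vehicle libraries. The groups did not overlap, although spironolactone replicate 2 lay close to vehicle replicate 3, and the log2 fold change was 0.89 (SE 0.254, adjusted p = 0.114). Efna4 of the same class had 12.01, 13.2 and 13.2 TPM with spironolactone and 10.0, 9.74 and 11.2 TPM with vehicle (log2 fold change 0.37). Efna1, a ligand of EphA2, had 35.4, 35.6 and 31.5 TPM with spironolactone, against 29.9, 33.6 and 30.0 TPM with vehicle, and its groups overlapped. Efna1, Efna3 and Efna4 are direct neighbours among protein-coding genes in the RefSeq gene order, with 0 such genes between each and the next. Efna5, which guides retinal and other axons, had 21.4 to 23.3 TPM with spironolactone and 22.4 to 26.0 TPM with vehicle (log2 fold change -0.05, SE 0.112).

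Both abundant ephrin-B genes had slightly higher values with spironolactone. Efnb2, the ephrin that marks arterial endothelium, had 39.8, 42.1 and 38.3 TPM with spironolactone and 34.8, 35.9 and 37.1 TPM with vehicle. Its lowest spironolactone library lay just above its highest vehicle library, and the log2 fold change was 0.21 (SE 0.0552, adjusted p = 0.0953). Efnb1, whose human form is mutated in craniofrontonasal syndrome, had 45.3, 48.1 and 45.6 TPM with spironolactone, against 42.6, 38.2 and 44.5 TPM with vehicle (log2 fold change again 0.21, adjusted p = 0.154). The summed ephrin level was 167 to 171 TPM in spironolactone libraries and 149 to 159 TPM in vehicle libraries, so the sums did not overlap.

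Of the 13 tested Eph receptors, 7 had higher values with spironolactone at an unadjusted p under 0.05 and 1 had lower values. Over all tested genes the shares were 12.2% higher and 10.4% lower. Of the 13 tested receptors, the same 7 had the TPM of every spironolactone library above every vehicle library. That arrangement was found in 9.86% of all tested genes. With 3 libraries a group, separated values and a small p go together, so the 2 counts are not separate results. Epha1 had 62.6, 84.9 and 77.0 TPM with spironolactone and 43.0, 50.9 and 56.0 TPM with vehicle. Its log2 fold change was 0.64 (SE 0.141, adjusted p = 0.0773). Epha2, the receptor of ephrin-A1 at epithelial junctions, had 45.5, 38.7 and 44.6 TPM with spironolactone, against 35.4, 35.3 and 34.6 TPM with vehicle. The vehicle libraries lay close together, spironolactone replicate 2 was the lowest of its group, and the log2 fold change was 0.35 (SE 0.0735, adjusted p = 0.0747). Epha4, which binds ephrins of both classes, had 16.3, 18.6 and 18.2 TPM with spironolactone, against 12.9, 12.4 and 15.03 TPM with vehicle (log2 fold change 0.46, adjusted p = 0.0747). Epha7, the narrowest gap of these EphA genes, had 8.83, 12.5 and 9.49 TPM with spironolactone and 6.32, 7.21 and 8.68 TPM with vehicle (log2 fold change 0.53, adjusted p = 0.139).

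The EphB receptors split by gene. Ephb2 had 23.9, 22.1 and 23.1 TPM with spironolactone and 19.5, 19.5 and 19.2 TPM with vehicle, and its log2 fold change of 0.30 had an SE of 0.0543 and an adjusted p of 0.0659, the second smallest adjusted p of all members. Ephb3, which together with Ephb2 positions cells in the gut epithelium of mice, had 14.1, 14.1 and 14.6 TPM with spironolactone, against 9.22, 10.7 and 11.7 TPM with vehicle (log2 fold change 0.49, adjusted p = 0.0745). Ephb6, which lacks kinase activity and whose start region is shown above, had 4.67, 5.14 and 4.37 TPM with spironolactone and 2.95, 3.75 and 3.62 TPM with vehicle (log2 fold change 0.52). In these 3 genes no spironolactone library reached down to the vehicle range, as in 9.86% of all tested genes. Ephb4, the receptor of venous endothelium that pairs with ephrin-B2, had 34.1, 33.7 and 37.1 TPM with spironolactone and 38.3, 38.8 and 32.2 TPM with vehicle. Its groups overlapped and its log2 fold change was -0.0028 (SE 0.0818, adjusted p = 0.988). Ephb1 likewise overlapped, at 1.83 to 2.41 TPM with spironolactone and 2.06 to 3.05 TPM with vehicle.

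Epha3, an EphA receptor that binds ephrin-A5, had lower values in the spironolactone libraries. It had 6.30, 6.23 and 8.14 TPM with spironolactone, against 12.2, 14.96 and 8.50 TPM with vehicle, so the groups were separated only by the gap between the replicates 3. The log2 fold change was -0.76 (SE 0.209, adjusted p = 0.112). Without the replicates 3 of both treatments, where 7.02% of all genes were called, it was -1.06 (adjusted p = 0.0114). Without vehicle replicate 2, the highest library for Epha3, it was -0.55 (adjusted p = 0.31). Skeletal muscle markers, all detected in every library, lay below the vehicle range in TPM in 12 of 12 tested, against 23.1% of all tested genes. The part of muscle content in the Epha3 difference was not tested. The scarce receptors Epha6 and Epha8 also had lower values. Epha6 had 0.23, 0.40 and 0.21 TPM with spironolactone and 0.49, 0.49 and 0.48 TPM with vehicle, from 6 to 16 estimated counts a library, with a log2 fold change of -0.70 (SE 0.333) that was -1.06 without spironolactone replicate 2. Epha8 had 0.54, 0.63 and 0 TPM with spironolactone and 0.81, 0.69 and 0.76 TPM with vehicle. Spironolactone replicate 3, where Epha8 was listed at 0, is also the library with the lowest retina marker sum, and without it the log2 fold change was -0.31 in place of -0.88; without spironolactone replicate 2 it was -1.48.

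The summed Eph receptor level was 222.1, 242.0 and 241.5 TPM in spironolactone libraries and 186.9, 199.6 and 196.6 TPM in vehicle libraries. Beside it, the epithelial marker sum was also higher in every spironolactone library. A TPM range above that of vehicle was found in 10 of its 12 genes, against 9.86% of all tested genes. The part of epithelial content in the Eph, ephrin and class 4 semaphorin values was not tested.

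**Figure D3:**
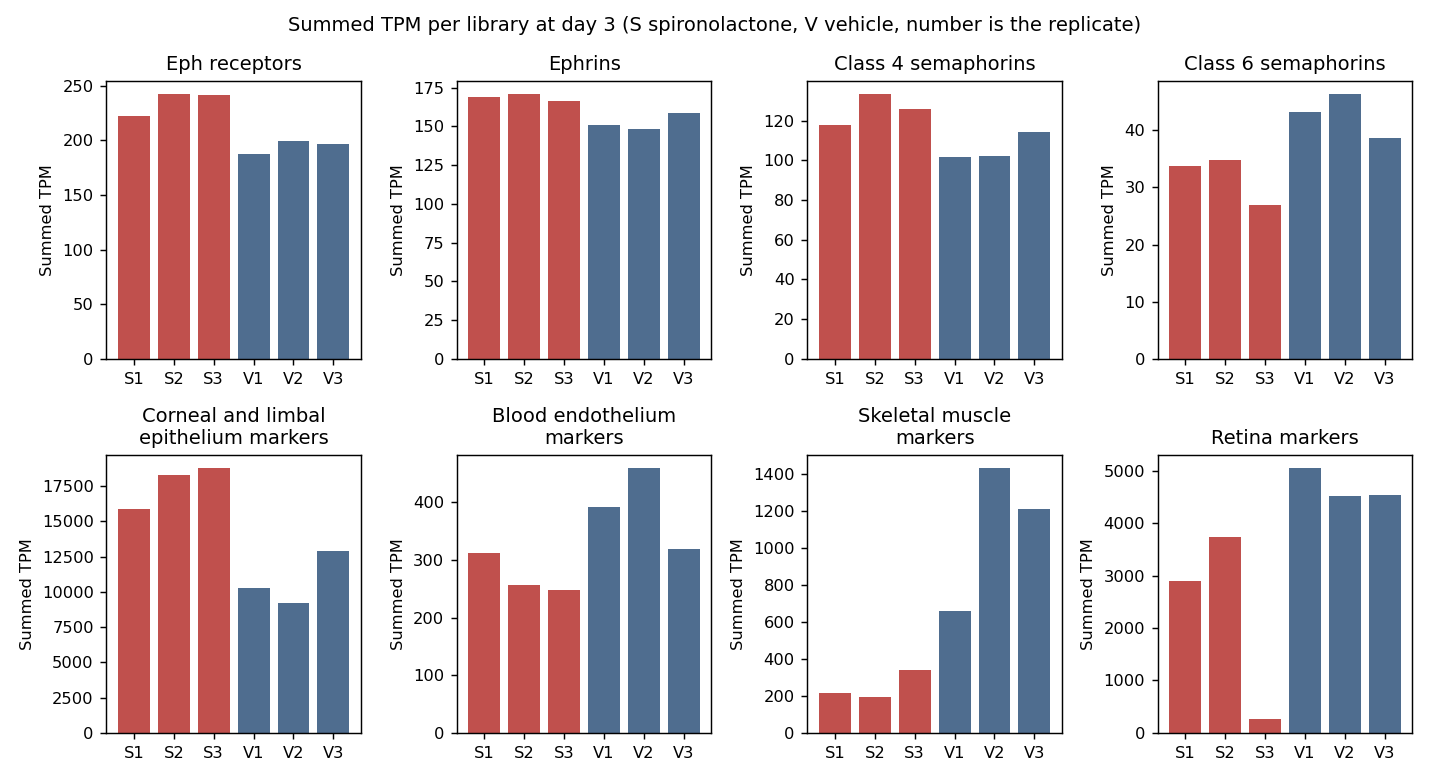
Summed TPM (y axis, from 0) in each library for 4 member groups (top) and 4 cell type marker lists (bottom); S is spironolactone and V is vehicle, with the replicate number. The Eph receptor, ephrin, class 4 semaphorin and epithelial marker sums are higher in the spironolactone libraries, while the class 6 semaphorin, blood endothelium, skeletal muscle and retina sums are lower, with S3 at 256 TPM for retina.

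Semaphorins divided by class. Of the 6 class 4 semaphorins, which are membrane-bound ligands of B plexins, 4 had higher values at an unadjusted p under 0.05. Over all tested genes, 12.2% did. Sema4b had the smallest p of all members, with 20.9, 20.6 and 20.4 TPM in spironolactone libraries, against 14.1, 15.9 and 16.1 TPM in vehicle libraries. Both groups were tight and well apart, and the log2 fold change was 0.48 (SE 0.0710, adjusted p = 0.0649). Sema4d, a ligand of plexin-B1 known from immune cells, had 32.9, 40.5 and 34.8 TPM with spironolactone and 27.6, 27.8 and 33.0 TPM with vehicle. Vehicle replicate 3 touched the spironolactone range in TPM but not in counts after TMM scaling (scaled counts), and the log2 fold change was 0.35 (SE 0.0740, adjusted p = 0.0747). Sema4a had 44.5, 51.5 and 50.6 TPM with spironolactone, against 39.5, 38.2 and 46.5 TPM with vehicle, with the same replicate as the overlap (log2 fold change 0.38, adjusted p = 0.102). Sema4c differed little, at 15.64, 15.91 and 16.71 TPM with spironolactone and 15.61, 15.45 and 13.96 TPM with vehicle (log2 fold change 0.18, and 0.12 without the replicates 3 of both treatments). The scarce Sema4f and Sema4g, under 4 TPM in every library, had log2 fold changes of -0.17 and -0.25 with overlapping groups.

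The B plexins, of which Plxnb1 and Plxnb2 are receptors of class 4 ligands, had positive log2 fold changes in 3 of 3 genes (48.4% of all tested genes). That of Plxnb3 was near 0. Plxnb1 had 25.5, 28.4 and 27.1 TPM with spironolactone and 21.9, 22.9 and 24.9 TPM with vehicle (log2 fold change 0.27, SE 0.0700, adjusted p = 0.0927). Plxnb2 had 171, 179 and 174 TPM with spironolactone, against 162, 163 and 158 TPM with vehicle. Every spironolactone library lay above the vehicle range for both genes, as in 9.86% of all tested genes. The Plxnb2 difference was small (log2 fold change 0.17, SE 0.0468, adjusted p = 0.104). Plxnb3 was at 0.37 to 0.64 TPM in the 6 libraries, from 31 to 58 estimated counts each, and its log2 fold change was 0.03 (SE 0.248).

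**Figure D4:**
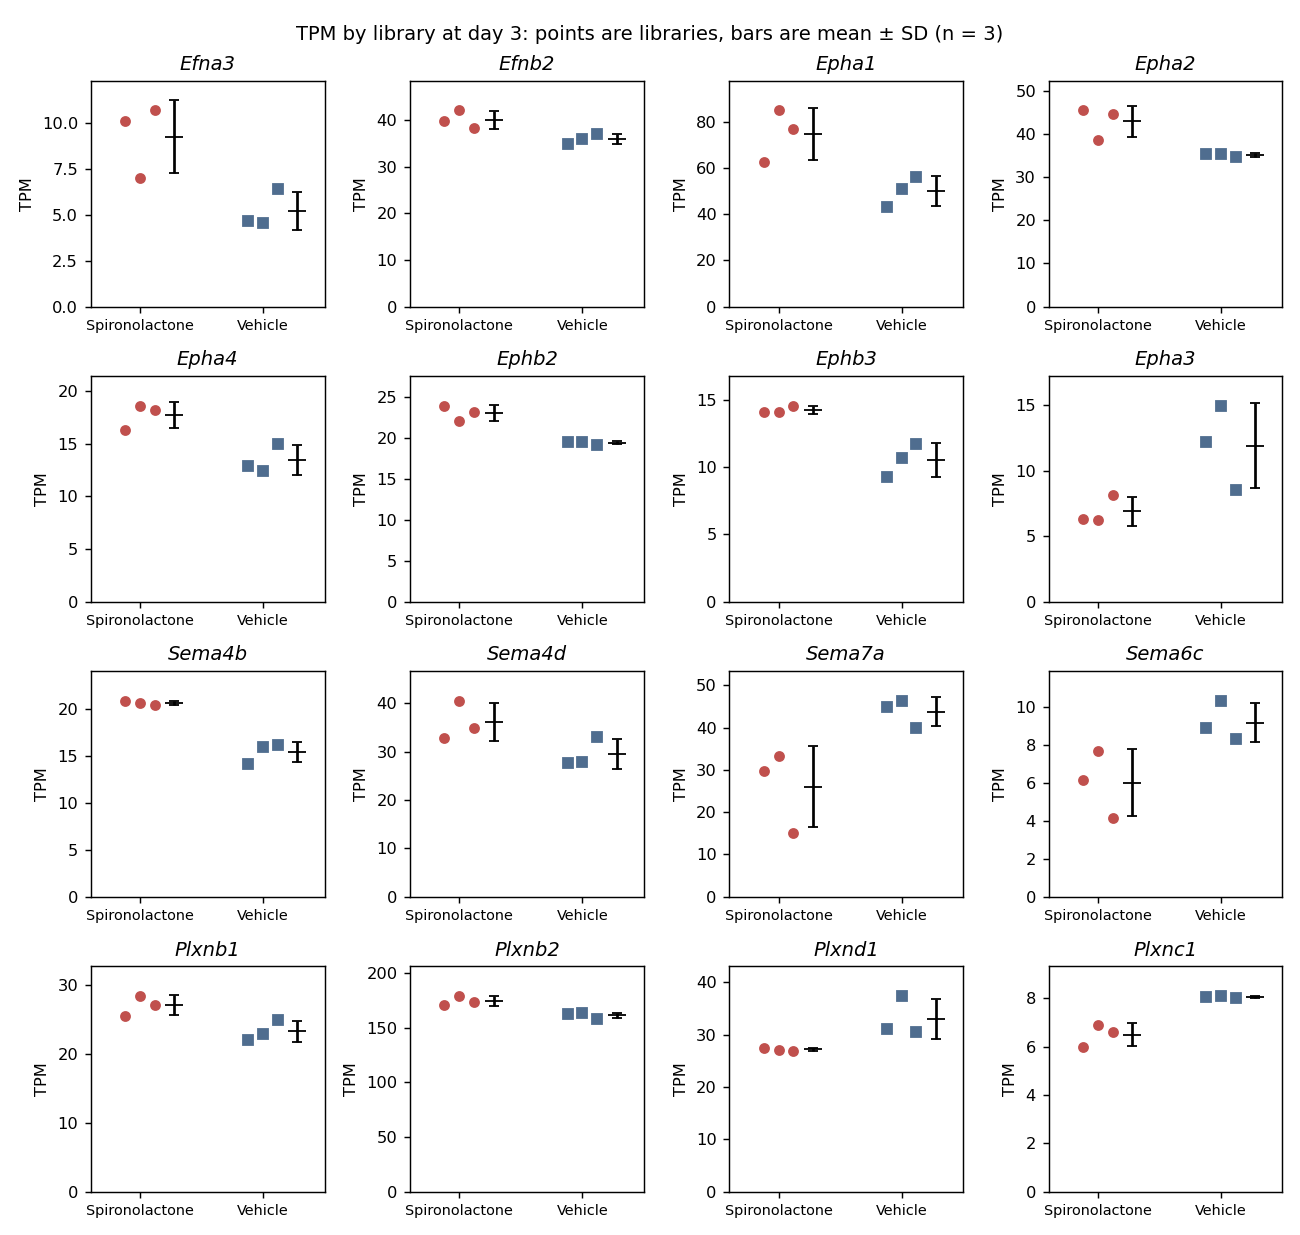
TPM (y axis, from 0) of 16 members in each day 3 library; circles are spironolactone and squares vehicle libraries, and the black bars are mean ± SD (n = 3). Sema4b and Ephb2 show separated groups, whereas Sema7a and Sema6c show a low point in spironolactone replicate 3 (15.1 and 4.16 TPM).

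The secreted class 3 semaphorins, which act through neuropilins and A or D plexins, held no member at an unadjusted p under 0.05. Sema3c had 80.4, 78.6 and 78.8 TPM with spironolactone and 90.3, 88.1 and 86.5 TPM with vehicle. The spironolactone values lay below the vehicle range, as in 23.1% of all tested genes, but the log2 fold change on scaled counts was -0.10 (SE 0.0447, adjusted p = 0.249). Sema3a, which repels sensory axons through Nrp1, had 7.76, 8.60 and 10.5 TPM with spironolactone, against 10.3, 8.95 and 9.14 TPM with vehicle, with a log2 fold change of -0.02 (SE 0.126). Sema3f, a ligand of Nrp2, had 48.1, 51.0 and 49.8 TPM with spironolactone and 52.8, 52.6 and 45.4 TPM with vehicle. Neither Sema3a nor Sema3f differed by more than the spread between libraries. Sema3e, which binds Plxnd1 without a neuropilin, had 2.20, 2.57 and 0.96 TPM with spironolactone and 3.08, 2.93 and 2.86 TPM with vehicle, and its log2 fold change of -0.57 was -0.25 without spironolactone replicate 3.

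Plxnd1, the plexin of vascular endothelium, had 27.5, 27.1 and 26.9 TPM in spironolactone libraries, against 31.2, 37.4 and 30.5 TPM in vehicle libraries. Every spironolactone library lay below the vehicle range, as in 23.1% of all tested genes, and the log2 fold change was -0.22 (SE 0.0818, adjusted p = 0.178). Vehicle replicate 2 was the highest library, and without it the Plxnd1 log2 fold change was -0.12 (adjusted p = 0.427). Nrp1, the neuropilin that also binds VEGF, had 60.5, 58.8 and 59.9 TPM with spironolactone and 71.2, 76.5 and 64.2 TPM with vehicle (log2 fold change -0.18, adjusted p = 0.178, and -0.11 without vehicle replicate 2). Nrp2 had 39.9, 43.2 and 44.6 TPM with spironolactone, against 44.0, 49.2 and 43.4 TPM with vehicle, which overlapped (log2 fold change -0.04). All 12 blood endothelium markers were detected in every library and all had negative log2 fold changes, with a median of -0.43. Of all 14762 tested genes, 7623 had negative ones. The part of endothelial content in the Plxnd1 and Nrp1 values was not tested. Plxna1 had 25.1, 26.3 and 27.9 TPM with spironolactone and 26.5, 25.6 and 25.1 TPM with vehicle, and its groups overlapped (log2 fold change 0.09, and 0.05 without spironolactone replicate 3). Plxna4, a receptor of Sema3a and Sema6a, was scarce, at 1.24, 1.45 and 1.28 TPM with spironolactone and 1.76, 2.20 and 1.96 TPM with vehicle. Its spironolactone values lay below the vehicle range, as in 23.1% of all tested genes. The Plxna4 log2 fold change was -0.52 (SE 0.135, adjusted p = 0.0966). Plxna3 differed by range in TPM alone, at 4.25, 4.46 and 4.66 TPM with spironolactone and 4.77, 5.33 and 4.71 TPM with vehicle, and its log2 fold change of -0.09 was -0.02 without vehicle replicate 2.

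All 4 class 6 semaphorins, transmembrane ligands of A plexins, had negative log2 fold changes (median -0.48). Of all 14762 tested genes, 7623 had negative ones. Sema6a had 9.89, 11.2 and 7.64 TPM with spironolactone and 13.5, 13.0 and 12.7 TPM with vehicle (log2 fold change -0.40, SE 0.143, adjusted p = 0.17, and -0.25 without spironolactone replicate 3). Sema6c had 6.18, 7.69 and 4.16 TPM with spironolactone, against 8.89, 10.3 and 8.32 TPM with vehicle, a log2 fold change of -0.55 that was -0.35 without spironolactone replicate 3. In both genes spironolactone replicate 3 was the lowest library. Their spironolactone values lay below the vehicle range, as in 23.1% of all tested genes. Sema6d, the most abundant of the class, had 14.3, 13.8 and 13.0 TPM with spironolactone and 16.7, 18.4 and 14.7 TPM with vehicle (log2 fold change -0.20, and -0.12 without vehicle replicate 2); its groups overlapped in scaled counts. Sema6b had 2.08 to 3.36 TPM with spironolactone and 2.88 to 4.55 TPM with vehicle, which overlapped. The class summed to 33.8, 34.8 and 26.9 TPM in spironolactone libraries and 43.2, 46.3 and 38.6 TPM in vehicle libraries.

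Sema7a, a lipid-anchored semaphorin that promotes axon growth through integrin beta-1 and also binds plexin-C1, had the largest difference of any semaphorin. It had 29.8, 33.3 and 15.1 TPM with spironolactone, against 45.0, 46.4 and 39.9 TPM with vehicle. All 3 spironolactone libraries lay below the vehicle range, as in 23.1% of all tested genes. Spironolactone replicate 3 was far below the others of its group. The log2 fold change was -0.69 (SE 0.282, adjusted p = 0.223). Without spironolactone replicate 3 it was -0.42 with a smaller SE of 0.0808 (adjusted p = 0.0847), and without the replicates 3 of both treatments -0.47 (adjusted p = 0.0217). Plxnc1, its plexin, had 5.98, 6.92 and 6.59 TPM with spironolactone and 8.05, 8.11 and 8.03 TPM with vehicle. The vehicle libraries lay close together, and the log2 fold change was -0.25 (SE 0.0730, adjusted p = 0.115). Its spironolactone values lay below the vehicle range, as in 23.1% of all tested genes. Retina markers, 12 of 12 detected in every library, and neuron markers, 12 of 12 detected with summed levels of 48.0 to 205 TPM with spironolactone and 253 to 281 TPM with vehicle, were lowest in the same replicate 3; their part in the Sema7a and class 6 values was not tested. Macrophage and dendritic cell markers, 9 detected, summed to 1044 to 1245 TPM with spironolactone and 1163 to 1490 TPM with vehicle, and their part in the Plxnc1 value was not tested.

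The 16 members not described by library spanned 0.03 to 26.0 TPM and log2 fold changes of -0.57 to 0.11, with a smallest adjusted p of 0.228. They include the ephrins Efna2, Efna5 and Efnb3, the receptors Epha5, Epha10 and Ephb1, and the semaphorins Sema5a and Sema5b, which carry thrombospondin repeats.

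Other genes of the pathways were read from lists of co-receptors and effectors. No gene of any of the 4 lists was called, and their median log2 fold changes were -0.04 for co-receptors, 0.01 for semaphorin and plexin signalling, 0.05 for ephrin and Eph signalling and -0.15 for netrin, slit and repulsive guidance molecules. Of 15 tested co-receptors and other semaphorin receptors, 3 had higher and 3 lower values at an unadjusted p under 0.05 (40.0% in all), where 12.2% of all tested genes were higher and 10.4% lower, 22.6% in all. Erbb2, the receptor kinase that associates with B plexins, had 17.4, 20.5 and 18.7 TPM with spironolactone and 13.6, 13.6 and 13.9 TPM with vehicle (log2 fold change 0.53, adjusted p = 0.0649). Mst1r, a kinase that also partners B plexins, had a log2 fold change of 0.34, and Tyrobp, the myeloid adaptor that signals with plexin-A1 and Trem2, -0.35. Of 27 genes of semaphorin and plexin signalling, 5 had higher and 3 lower values (29.6% in all, near the 22.6% of all tested genes). Gipc1, an adaptor that binds plexins and neuropilins, stood at a log2 fold change of 0.37 (adjusted p = 0.0649) and Sh3bp1, a Rac-inactivating protein, at 0.36. Rnd1, a small GTPase that binds plexins, had -1.36, with 2.12, 1.71 and 1.27 TPM with spironolactone and 7.09, 3.26 and 3.32 TPM with vehicle. Its vehicle replicate 1 was the highest library, and without it the Rnd1 log2 fold change was -0.90.

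Of 25 genes of ephrin and Eph signalling and shedding, 6 had higher and 4 lower values at an unadjusted p under 0.05 (40.0% in all, against 12.2% higher and 10.4% lower over all tested genes). Vav3, a guanine nucleotide exchange factor downstream of Eph receptors, had 39.9, 45.4 and 42.2 TPM with spironolactone and 27.8, 27.6 and 32.5 TPM with vehicle (log2 fold change 0.59, adjusted p = 0.0649). For Arhgef5, of the ephexin family, the log2 fold change was 0.45, and for the kinase gene Src it was 0.21. All 3 of these genes, named for the smallest p of their list, had spironolactone values above the vehicle range. Of the list, 6 genes lay above and 7 below that range, where 9.86% of all tested genes lay above and 23.1% below. Among 23 tested genes of netrin, slit and repulsive guidance molecule signalling, 1 had higher and 6 had lower values at an unadjusted p under 0.05. That was 30.4% in all, near the 22.6% of all tested genes (12.2% higher and 10.4% lower). The difference from the other lists was not tested. Robo1, a slit receptor, had a log2 fold change of 0.29 and its ligand gene Slit1 -0.61. Hfe2, the older symbol of hemojuvelin, had -2.40; it is made by skeletal muscle, whose markers were lower in the same libraries, and their part in that value was not tested.

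Whether a member counted as called depended on the test, on the filter on low counts and on vehicle replicate 3. DESeq2 called 14 members, 12 higher and 2 lower, where it called 7.07% of the 18801 genes it fitted, at the same adjusted p of 0.05. They were Sema4a, Sema4b, Sema4d, Plxnb1, Plxnb2, Efnb2, Epha1, Epha2, Epha4, Ephb2, Ephb3 and Ephb6 with higher values and Epha3 and Sema7a with lower ones. Of the 18801 genes, 4259 had no adjusted p from DESeq2 and could not be called, among them 1 member. With no filter on low counts edgeR called 1 member, Sema4b (0.787% of all genes). Without spironolactone replicate 3 alone, edgeR called 0 members and 2 genes. Without vehicle replicate 3 alone it called 8 members (5.27% of all genes), and without the replicates 3 of both treatments 9 (7.02% of all genes). The 7 members called by DESeq2 and in both sets that lacked vehicle replicate 3 were Sema4a, Sema4b, Sema4d, Plxnb1, Epha3, Epha4 and Ephb3.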

How the data were processed

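RNA-seq libraries were grouped by their titles, and the 6 day 3 libraries were used. The submitters' processing notes list STAR 2.5.3a and RSEM 1.2.28 beside FastQC, Picard, fastp and DRAGEN, as well as edgeR 3.28.0 and DESeq2 1.26.0; rn6 and Rnor_6.0 are the listed builds, with no roles stated. Per the file headers, the deposited day 3 files hold expected counts in the layout of RSEM, gene and effective lengths, and TPM and FPKM values made by the authors; FPKM was not used here. Before the test, the deposited expected counts were rounded. The authors' TPM values are printed per library, since they correct for length. In 1 row that names no gene there were 0.12% to 0.181% of the counts, and it was left out.

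The fit compared spironolactone with vehicle at day 3 over all genes. Genes were kept by edgeR's filter with a minimum count of 10, scaled by TMM and tested with the robust quasi-likelihood test of edgeR 4.0.16 in R 4.3.3, with Benjamini-Hochberg adjustment at 0.05 over all genes tested. SE was obtained from the log2 fold change and the F statistic. The fits were checked on simulated counts. Alternatives were DESeq2 1.42.0, limma-voom (limma 3.58.1), offsets from effective lengths, RLE size factors, at least 1 CPM in 3 libraries or no filter on low counts, a replicate block, each library left out, the replicates 3 left out together, and limma on log2(TPM + 1) and log2(TPM + 0.1) of the deposited TPM.

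Values per library are given for members at an unadjusted p under 0.05, for those whose groups do not overlap, for the 3 most abundant of each family and for a fixed list of well-known members; this gave 35 members. The 3 genes with the smallest p in each pathway list are named, with Nrp1 and Nrp2. The member families and the lists were chosen with earlier results of these data known; within the families, members were taken by name alone. Every pair of libraries within a group differed by more than sampling noise (chi-square per gene 7.91 to 23.7). Day 7 files were not analysed here. Use of strand in counting is not stated in the sources used, so overlapping genes may share reads; related family members may also share reads. The list genes Robo4, Col1a2, Myh1, Myh4, Prph2 and Itgam were not analysed here. The list symbol Rgmc matched no named gene, and hemojuvelin, listed as Hjv, was read under Hfe2. The lymphocyte marker list is not reported here.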

Additional observations from a re-analysis of the deposited data

How the results depend on the processing

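Of the 35 described members, 25 had been picked for an unadjusted p under 0.05 and others for groups that did not overlap. For such members a kept direction was largely set by that choice. In all, 32 of the 35 kept the direction of their log2 fold change under all of up to 16 alternatives. The exceptions lay near 0. Ephb4 was at 0.00282 with DESeq2, 0.0019 with RLE size factors and -0.06 to 0.0543 when libraries were left out in turn; Sema3a was at -0.155 to 0.0738 when libraries were left out, and Sema3f at 0.0407 with effective-length offsets and -0.107 to -0.0295 when libraries were left out. Nrp2 was at -0.0787 to 0.0288 when libraries were left out. The number of members called was 0 in the edgeR fit, 14 with DESeq2, 1 with no filter on low counts (Sema4b, 0.787% of all genes), 9 without the replicates 3 of both treatments and 0 to 8 when libraries were left out in turn, highest without vehicle replicate 3; limma-voom called 0. Over all genes the calls were 0, 1330, 148, 1040 and 0 to 781 in the same order (781 without vehicle replicate 3, 40 without vehicle replicate 1, 2 without spironolactone replicate 3 and 0 otherwise); the cause was not tested. At an unadjusted p under 0.05 there were 7 lower members, 3 to 10 when libraries were left out (3 without vehicle replicate 2, 4 without vehicle replicate 1 or spironolactone replicate 1) and 11 with limma on log2(TPM + 0.1). Higher members were 15 to 18 under all alternatives. The median log2 fold change over members was -0.02 and -0.0611 with limma on log2(TPM + 0.1), where the median of all genes was -0.07.

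The titles give both groups replicate numbers, but same-numbered libraries did not deviate together (r = 0.0898, -0.0845 and 0.0486 across genes), so the numbers were not taken as pairs. With the replicate block 0 members and 0 genes were called, with 17 higher and 9 lower at an unadjusted p under 0.05. The scarce Plxnb3, Epha6 and Epha8, at 0 to 58 estimated counts a library, had SEs of 0.248, 0.333 and 0.769; that of Epha8 was 0.229 without spironolactone replicate 3. What depth adds to these errors was not tested.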
